A study of Thunnus thynnus with 30 samples.

Results

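High and medium dietary docosahexaenoic acid (DHA) were compared in larvae of Atlantic bluefin tuna, Thunnus thynnus, at 10 days post hatch (dph). The comparison rests on 6 libraries chosen by their labels, 3 from larvae on high DHA and 3 from larvae on medium DHA, out of 26 libraries with counts and 30 samples listed in the series. All larvae are labelled wild type and were fed live rotifers, Brachionus rotundiformis, whose DHA content was the treatment: 10.9 mg per g dry weight in high, 3.6 in medium and 2 in low DHA. The 3 libraries of low DHA at the same age, and libraries of high and medium DHA at 5 and 15 dph, serve for reference. RNA came from whole larvae, and each diet was fed in 3 tanks. Which tank a library came from, and how many larvae it holds, are not stated in the labels. In whole larvae, fewer cells of a type and less RNA per cell cannot be told apart, and p-values here measure the spread between sampled libraries.

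DHA is a long-chain omega-3 fatty acid that is built into membrane phospholipids, above all in photoreceptor outer segments and at synapses. Marine fish make little of it and take it from prey, so larvae depend on what their live food carries. In the same weeks of larval life the cartilage skeleton is laid down and begins to be replaced by bone, the swimming muscle grows and the retina matures. Genes of these tissues, of lipid metabolism and of cell division are described below beside the genes that differed most.

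The 6 libraries held 13695566 to 17050856 counts each, and a row of the table had a median mean count of 510 across them. Of 32 marker genes of muscle, lens, photoreceptors, pancreas, liver, gut, neurons and cartilage, 23 were found in 29 rows, with no row below 1.11 CPM (counts scaled to a common library size) in any of the 6. In a principal component analysis of the 6 libraries the first component held 40.5% of the variance. Medium replicate 1 scored -1.38 on it, between medium replicates 2 and 3 at 18.2 and 14.4 and the high libraries at -10.1, -8.12 and -13. Its counts also stood further from the other medium libraries, with a mean chi-square per gene of 43.4 and 36.6, against 13.4 to 23 for the other pairs within a diet. Results that turned on this or another single library are given below without it.

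**Figure D1:**
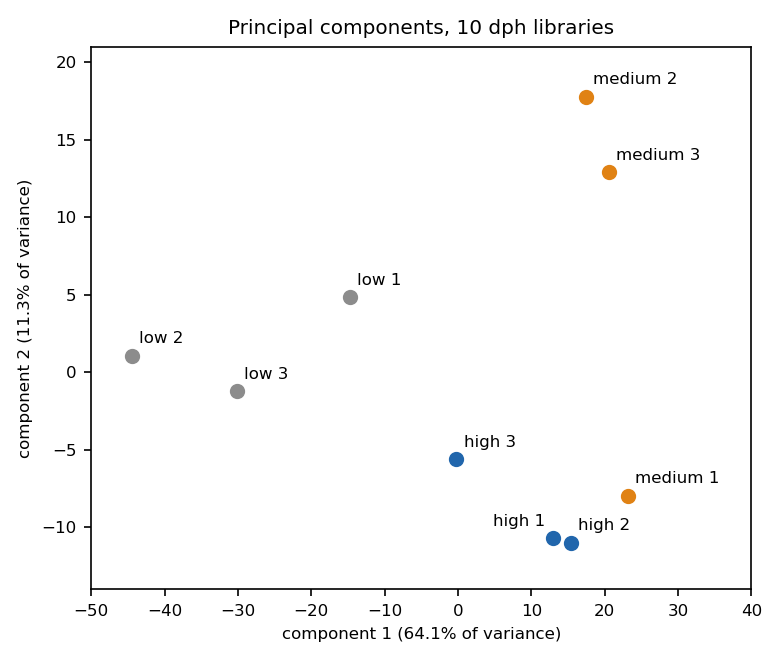
Scores of the 9 libraries of 10 dph on the first 2 principal components of log2 CPM, 1 point per library, coloured by diet. The first component (64.1% of the variance) separates low DHA from the others; on the second (11.3%), medium replicate 1 lies at -7.97, near the high libraries at -10.7, -11 and -5.63, and medium replicates 2 and 3 lie at 17.8 and 12.9.

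Between high and medium DHA at 10 dph, 10 of 7292 tested genes changed (0.137%) by edgeR's quasi-likelihood test with Benjamini-Hochberg adjustment at 0.05. Expression of 4 was higher in high DHA (0.0549%) and of 6 lower (0.0823%). The genes with lower levels include MFAP4 and CMKLR1, known from macrophages, and PPEF2 and CLUL1, known from photoreceptors. Those with higher levels include Cfi, a complement regulator made by the liver, ABRA, of striated muscle, and Chaf1b, of chromatin assembly. Before adjustment, 1222 genes (16.8%) had a p under 0.05, of which 650 (8.91%) were higher and 572 (7.84%) lower in high DHA. The log2 fold changes of the 10 changed genes had sizes of 0.41 to 1.65.

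The count of changed genes depended on single libraries. Without medium replicate 1 it was 345 (4.73%), with 220 higher (3.02%) and 125 lower (1.71%). That library lay towards the high libraries on the first component, and its counts stood furthest from its group. Leaving it out widened the median log2 fold change of bone and cartilage genes, described below, from 0.44 to 0.59. For cell cycle genes the median narrowed from 0.26 to 0.19, and for phototransduction genes it was -0.27 with the library and -0.28 without. Why the count rose was not tested, and the 345 calls are given as a limit of the count and not as changed genes. Leaving out medium replicate 2 or 3 gave 1 and 4, and leaving out high replicate 1, 2 or 3 gave 2, 16 and 1. DESeq2, fitted to the same counts, called 133. Of the 10 genes, all were also called by DESeq2. Fitting the 6 libraries alone called 5 genes, of which 2 were among the 10. With 1 of the 6 libraries left out, 1 to 10 of the 10 genes were still called. The row pssA was called in each of 14 alternatives tried. The other 9 were called in 5 to 9 of the 14, with the same sign wherever they were fitted.

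The lowest p belonged to pssA, at 40.9, 56 and 45.7 CPM in the 3 medium libraries and 17.5, 18.5 and 14.9 CPM in the 3 high libraries. The groups did not overlap, and the lowest medium library was above the highest high library by a wide margin. The log2 fold change of high over medium DHA was -1.48 ± 0.18 (standard error, as for all fold changes below; n = 3 and 3), with a 95% interval of -1.86 to -1.1 and an adjusted p of 0.00024 by edgeR with Benjamini-Hochberg adjustment. In bacteria this name denotes phosphatidylserine synthase, an enzyme of phospholipid synthesis, and what the tuna row encodes is not described in the sources used here. Low DHA libraries lay at 15.6, 14.7 and 13.1 CPM, so that medium DHA was the diet that stood apart. Over low DHA, pssA had a log2 fold change of 1.71 ± 0.19 in medium (adjusted p = 2.5e-05, edgeR) and 0.23 ± 0.19 in high DHA (adjusted p = 0.4).

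MFAP4 encodes a glycoprotein of extracellular microfibrils in mammals, and in zebrafish its promoter marks macrophages. Its levels were 17.5, 16.2 and 16.1 CPM in medium DHA and 4.93, 6.45 and 4.41 CPM in high DHA, again without overlap. MFAP4 fell by 1.65 on the log2 scale (± 0.31, adjusted p = 0.035, edgeR), and low DHA lay at 4.1, 3.32 and 1.78 CPM. Another row, named Mfap4, held a mean of 1.3 CPM in medium and 0.546 CPM in high DHA (log2 fold change -1.21, adjusted p = 0.26), and reads of MFAP4 may be split between them. CMKLR1, the receptor of chemerin and, in mammals, of the lipid mediator resolvin E1, is found on macrophages and dendritic cells. It was at 7.15, 8.03 and 9.15 CPM in medium and 5, 5.01 and 4.27 CPM in high DHA (-0.77 ± 0.14, adjusted p = 0.035). In low DHA, CMKLR1 was at 4.04, 3.81 and 4.58 CPM, so its high libraries were nearer to low than to medium DHA.

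PPEF2 encodes a calcium-binding protein phosphatase of photoreceptors and was at 21.7, 32.5 and 26.9 CPM in medium against 15.1, 18.5 and 16.6 CPM in high DHA (-0.69 ± 0.14, adjusted p = 0.044, edgeR). CLUL1, a clusterin relative expressed in mammalian cones, was at 311, 330 and 326 CPM in medium and 232, 250 and 245 CPM in high DHA (-0.41 ± 0.08, adjusted p = 0.049). Both retinal genes lay in high DHA where they lay in low DHA, at 20.2, 13.7 and 15.7 CPM for PPEF2 and 241, 276 and 243 CPM for CLUL1. LACTBL1, named for its likeness to a bacterial beta-lactamase, was at 68.3, 75 and 81.4 CPM in medium, 57.4, 53.9 and 52.8 CPM in high and 60, 53 and 55.6 CPM in low DHA (high over medium -0.45 ± 0.08, adjusted p = 0.035). For all 6 of these genes every medium library stood above every high library, as it did for 11.7% of all genes. They were chosen by their call in the same libraries, so this separation is not further evidence.

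Cfi encodes complement factor I, the plasma protease that inactivates C3b and C4b. It was at 17.9, 14.9 and 21.8 CPM in medium and 33.6, 34 and 33 CPM in high DHA, a rise of 0.88 ± 0.17 on the log2 scale (adjusted p = 0.044, edgeR). Here high DHA was the diet that stood apart, since low DHA was at 18.7, 21.4 and 18.8 CPM (high over low 0.77 ± 0.17, adjusted p = 0.0037; medium over low -0.1 ± 0.17, adjusted p = 0.67). ABRA, which binds actin in striated muscle and activates serum response factor targets, was at 16.2, 12.1 and 10.7 CPM in medium and 25.8, 21.4 and 18.7 CPM in high DHA. It rose by 0.76 ± 0.15 (adjusted p = 0.044), and the low libraries were at 9.44, 10.4 and 10.5 CPM, below every high library (high over low 1.12 ± 0.15, adjusted p = 0.00074; medium over low 0.36 ± 0.16, adjusted p = 0.078).

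The row act3 carries an actin name, and since actin genes are near-identical its reads may be shared with other actin rows. It was at 490, 290 and 296 CPM in medium and 715, 640 and 807 CPM in high DHA (1.01 ± 0.2, adjusted p = 0.044, edgeR), with low DHA at 687, 813 and 1000 CPM. Chaf1b, a subunit of chromatin assembly factor 1, which places histones on newly made DNA, was at 7.35, 8.1 and 8.92 CPM in medium and 13.8, 10.7 and 15.9 CPM in high DHA (0.73 ± 0.15, adjusted p = 0.049). A row named CHAF1B, mentioned for its shared name, is counted apart from it and was not among the changed genes. Values of CHAF1B are not given here, so the call holds for the row Chaf1b alone. Low DHA was at 13.2, 12.5 and 13.5 CPM for Chaf1b, so for both act3 and Chaf1b the medium libraries were below all libraries of the other diets. Medium over low DHA was -1.22 ± 0.2 for act3 (adjusted p = 0.00016) and -0.68 ± 0.15 for Chaf1b (adjusted p = 0.0011). High over low was -0.21 ± 0.2 for act3 (adjusted p = 0.48) and 0.04 ± 0.14 for Chaf1b (adjusted p = 0.86).

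**Figure D2:**
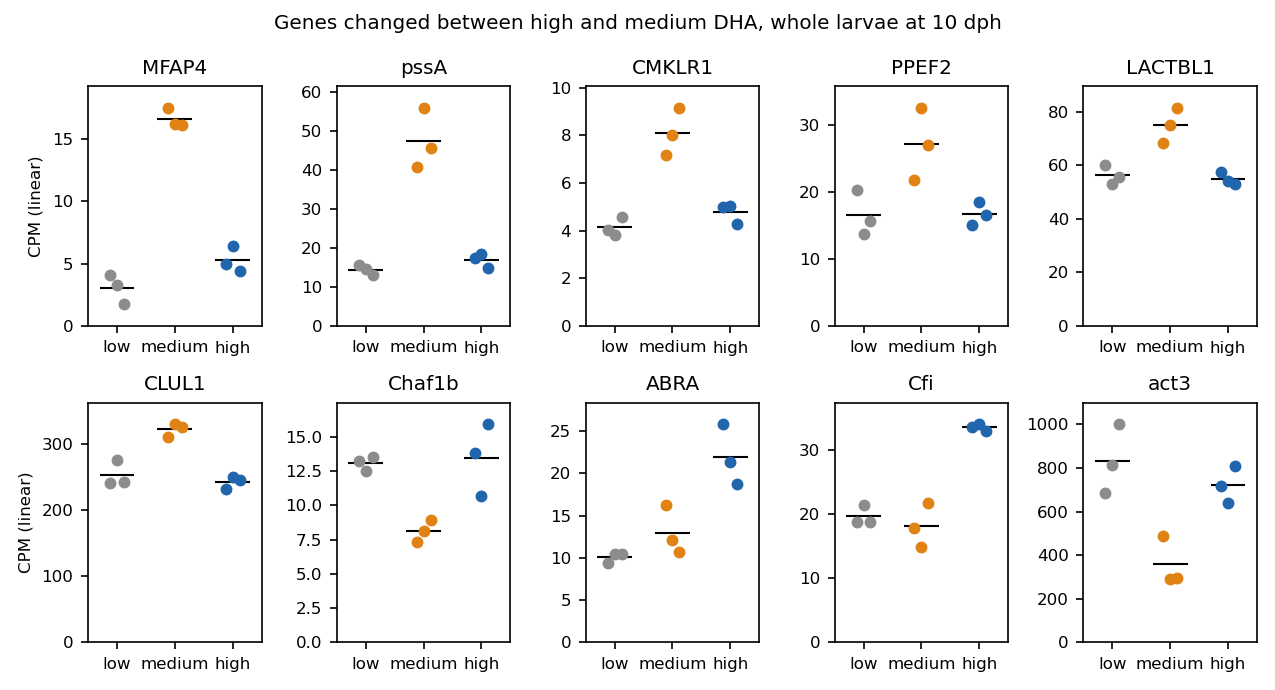
CPM on a linear scale in each library at 10 dph (points; the line is the mean of 3) for the 10 genes that changed between high and medium DHA, ordered by log2 fold change. In the panels for Cfi and ABRA the high points stand apart from both other diets, and in the other 8 panels the medium points do.

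Genes with the next smallest p values did not pass. EFEMP2, fibulin-4 of elastic fibres, was at 47.8, 35.8 and 40.2 CPM in medium and 55.6, 62.4 and 62.8 CPM in high DHA (0.55 ± 0.12, adjusted p = 0.066, edgeR). For hspb11, named for the small heat shock family, the values were 44.1, 24.6 and 23.3 against 52, 71.9 and 58.9 CPM (0.99 ± 0.21, adjusted p = 0.053). NR4A3, an early-response nuclear receptor, ran from 14.7 to 15.7 CPM in medium and at 15.4, 29.2 and 37.1 CPM in high DHA, where replicate 1 lay within the medium range (0.85 ± 0.19, adjusted p = 0.07). PRODH, the first enzyme of proline breakdown, was at 58.3, 57.6 and 61.4 against 44.9, 45 and 43.2 CPM (-0.41 ± 0.09, adjusted p = 0.07). Trpm1, the channel of retinal ON bipolar cells, was at 82, 74.1 and 83 against 66.9, 58.5 and 61 CPM (-0.36 ± 0.08, adjusted p = 0.07).

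Gene groups were described with 38 lists of genes with known roles, which held 1229 rows. Cfi was the only member of any list that passed the adjusted threshold, so the lists are described by their medians and by members with an unadjusted p under 0.05, which 8.91% of all genes had as higher and 7.84% as lower values in high DHA. The median log2 fold change of all tested genes was -0.002. Skeletal, matrix, cell cycle, muscle and plasma protein lists leaned to higher values in high DHA, and phototransduction and neuronal lists to lower values. The neuronal lean did not extend to glia and myelin. Of those 11 genes, 3 (27.3%) were higher and 0 lower at an unadjusted p under 0.05, with a median of 0.12. Lists of lipid metabolism lay near the background. None of these descriptions is a test of a list.

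**Figure D3:**
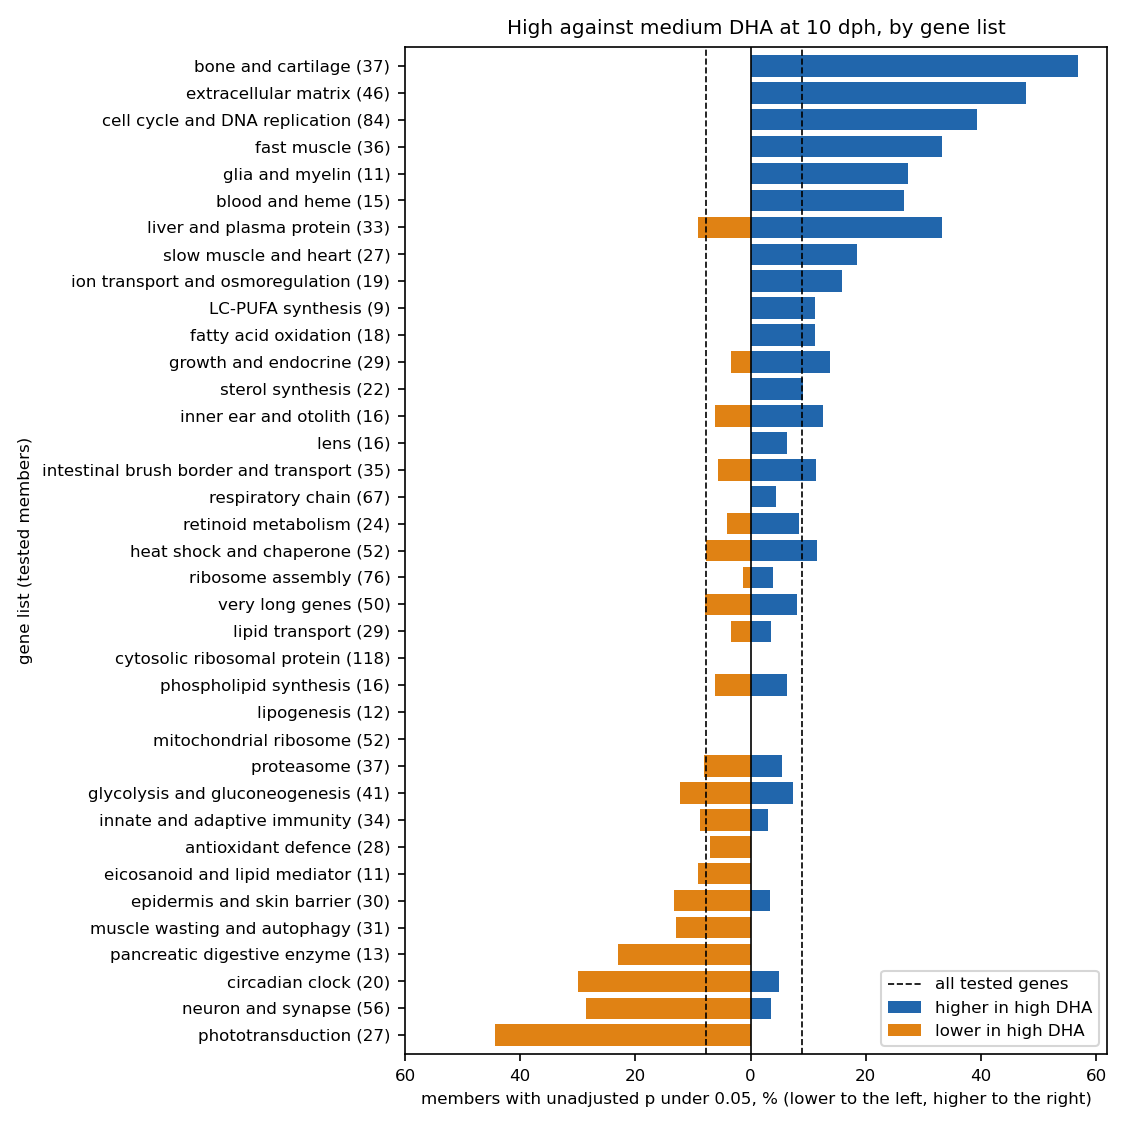
Share of each list's tested members (number in parentheses) with an unadjusted p under 0.05, higher in high DHA to the right and lower to the left, in percent; dashed lines mark all tested genes, at 8.91% and 7.84%. Of the lists drawn, which omit the 2 mitochondrially encoded genes (1 of them lower) and subsets of the ribosomal rows, bone and cartilage reaches furthest right (56.8%) and phototransduction furthest left (44.4%).

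Of 37 genes of bone and cartilage, 21 had an unadjusted p under 0.05 with higher values in high DHA (56.8%) and 0 with lower values, with a median log2 fold change of 0.44. In 25 of the 37 every high library was above every medium library, against 10.9% of all genes, and in 1 every high library was below. Cthrc1, a secreted protein of remodelling matrix and bone, was at 12.8, 9.4 and 10.1 CPM in medium and 16.7, 17.3 and 17.8 CPM in high DHA (0.68 ± 0.16, adjusted p = 0.07, edgeR). POSTN, periostin of the bone surface, was at 247, 201 and 203 against 349, 279 and 282 CPM (0.48 ± 0.13, adjusted p = 0.095). Both lacked overlap between the diets but missed the threshold. Col11a1, the cartilage fibril collagen XI, was at 364, 234 and 294 against 522, 423 and 499 CPM (0.69 ± 0.19, adjusted p = 0.1). COL9A3, a chain of collagen IX on the same fibrils, was at 430, 315 and 414 against 544, 523 and 540 CPM (0.47 ± 0.13, adjusted p = 0.1).

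Set beside low DHA, the bone and cartilage list had a median of -0.03 for high over low and -0.37 for medium over low. Averaged over members and centred on the mean of the 6 libraries, the log2 level was 0.03, -0.4 and -0.28 in the medium libraries, 0.29, 0.2 and 0.16 in the high libraries and 0.22, 0.16 and 0.29 in the low libraries. Medium replicates 2 and 3 were thus lowest, medium replicate 1 was below all high libraries, and high and low DHA overlapped. The cartilage marker genes are all members of this list, so their sum is not a separate measure. It ran from 635 to 1290 CPM in medium and from 1400 to 1670 CPM in high DHA. The part of cartilage amount in these differences was not tested. Without medium replicate 2, 12 of the 37 had an unadjusted p under 0.05 with higher values, and without medium replicate 1, 24 had.

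Of 46 genes of the extracellular matrix, 22 (47.8%) had an unadjusted p under 0.05 with higher values in high DHA and 0 with lower values, and the median was 0.35. Mmp14, a membrane-bound collagenase, was at 75, 53.9 and 61 CPM in medium and 82.1, 102 and 85.7 CPM in high DHA (0.5 ± 0.14, adjusted p = 0.099, edgeR). The row loxl2b, a lysyl oxidase that cross-links collagen, was at 93.1, 75.4 and 91.6 against 118, 115 and 111 CPM (0.4 ± 0.12, adjusted p = 0.11). COL16A1 was at 55.9, 35.5 and 45 against 71.8, 68 and 65.1 CPM (0.58 ± 0.18, adjusted p = 0.14). In each of these, medium replicate 2 was the lowest of the 6 libraries. Leaving medium replicate 2 out brought the number with an unadjusted p under 0.05 from 22 to 5, and leaving out high replicate 1 brought it to 13.

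Cell division genes leaned the same way. Of 84 cell cycle and DNA replication genes, 33 (39.3%) had an unadjusted p under 0.05 with higher values in high DHA and 0 with lower values, and the median was 0.26. The row nuf2, of the kinetochore, was at 7.35, 9.25 and 6.98 CPM in medium and 12, 10.8 and 12.1 CPM in high DHA (0.57 ± 0.14, adjusted p = 0.071, edgeR). For lig1, the ligase that joins DNA fragments in replication, the values were 28.9, 26.1 and 28.2 against 35.7, 35.7 and 40.3 CPM (0.42 ± 0.11, adjusted p = 0.096). The kinetochore partner of nuf2, ndc80, was at 12.8, 14.4 and 13.2 against 18.5, 19.2 and 17 CPM (0.43 ± 0.13, adjusted p = 0.12). Cyclin B1, ccnb1, was at 12.7, 17 and 15.5 against 20.7, 20.1 and 19.3 CPM (0.41 ± 0.12, adjusted p = 0.12). In all of these no medium library reached a high library, but they were chosen for the smallest p in the list. Over the list, every high library was above every medium library in 37 of the 84, against 10.9% of all genes. Every high library was below in 0 of the 84.

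The list's median was -0.12 for high over low DHA and -0.37 for medium over low, so cell cycle levels too were lowest in medium DHA. By library the centred mean level was -0.27, -0.08 and -0.04 in medium, 0.2, -0.01 and 0.19 in high and 0.31, 0.18 and 0.23 in low DHA. High replicate 2 lay close to medium replicates 2 and 3. Without medium replicate 1, which was the lowest, 18 of the 84 had an unadjusted p under 0.05 with higher values. Without high replicate 1 or 3 the numbers with an unadjusted p under 0.05 were 19 and 21.

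Muscle genes of both fibre types leaned to higher values in high DHA. Of 36 fast muscle genes, 12 (33.3%) had an unadjusted p under 0.05 with higher values in high DHA and 0 with lower values (median 0.26), and of 27 slow muscle and heart genes, 5 (18.5%) and 0 had (median 0.17). Casq1, the calcium store protein of fast fibres, was at 1260, 1090 and 1050 CPM in medium and 1550, 1430 and 1640 CPM in high DHA (0.44 ± 0.12, adjusted p = 0.096, edgeR). MYBPC1, a myosin-binding protein of the slow type that the fast muscle list also held, was at 63.5, 50.1 and 59.5 against 76.4, 80 and 69.1 CPM (0.38 ± 0.12, adjusted p = 0.13). The skeletal actin acta1 was at 20500, 11500 and 12500 against 22400, 19800 and 26900 CPM, where medium replicate 1 lay within the high range (0.63 ± 0.2, adjusted p = 0.15). HRC, a calcium-binding protein of the sarcoplasmic reticulum, was at 18.9, 17.8 and 16.6 against 25.3, 24.5 and 28 CPM (0.54 ± 0.13, adjusted p = 0.07). TNNT1, slow troponin T, was at 34.1, 30.1 and 30 against 46.1, 39.2 and 44.5 CPM (0.46 ± 0.11, adjusted p = 0.07). Averaged over the fast muscle list, medium replicate 1 lay within the range of the high libraries, at 0.06 against 0.05 to 0.16. Without medium replicate 3 the fast muscle count with an unadjusted p under 0.05 was 7.

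Of 33 liver and plasma protein genes, 1 rose (Cfi, above), 11 including it (33.3%) had an unadjusted p under 0.05 with higher values in high DHA and 3 with lower values, and the median was 0.22. FETUB, a protease inhibitor of plasma, was at 1340, 950 and 1200 CPM in medium and 2400, 1520 and 1880 CPM in high DHA (0.73 ± 0.17, adjusted p = 0.07, edgeR). A2m, alpha-2-macroglobulin, was at 178, 176 and 270 against 340, 300 and 313 CPM (0.61 ± 0.16, adjusted p = 0.092). The iron carrier transferrin, tf, was at 463, 510 and 520 against 760, 631 and 805 CPM (0.56 ± 0.16, adjusted p = 0.11). None of the 3, chosen for small p, overlapped between diets. Over the list, every high library was above every medium library in 7 of the 33 and below in 2. The shares of all genes were 10.9% and 11.7%. The list's median was 0.18 for high over low and -0.06 for medium over low DHA. Without medium replicate 2 or without high replicate 1, 6 of the 33 had an unadjusted p under 0.05 with higher values.

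Lower values in high DHA were frequent among phototransduction genes, which encode the light-response machinery of rods and cones. Of 27, 12 (44.4%) had an unadjusted p under 0.05 with lower values and 0 with higher values, the median was -0.27, and in 14 every high library was below every medium library, against 11.7% of all genes. PDE6C, the cone phosphodiesterase, was at 348, 404 and 389 CPM in medium and 286, 284 and 232 CPM in high DHA (-0.51 ± 0.12, adjusted p = 0.07, edgeR). PDE6H, its inhibitory subunit, was at 2340, 2720 and 2450 against 1770, 1880 and 1580 CPM (-0.52 ± 0.14, adjusted p = 0.095). GRK1, the kinase that turns off rhodopsin, was at 81.6, 86.7 and 82.7 against 64.6, 64.9 and 56.4 CPM (-0.43 ± 0.1, adjusted p = 0.07). GUCA1A, an activator of retinal guanylate cyclase, was at 17.3, 20.9 and 18.3 against 12.7, 12.3 and 13.9 CPM (-0.54 ± 0.15, adjusted p = 0.096). The same 4 genes in low DHA ran from 195 to 273 CPM for PDE6C, 1780 to 2030 for PDE6H, 65.6 to 72.8 for GRK1 and 12.7 to 17 for GUCA1A, below the medium libraries in each case.

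By library the centred mean level of the phototransduction list was 0.14, 0.11 and 0.09 in medium, -0.08, -0.03 and -0.23 in high and -0.18, -0.5 and -0.37 in low DHA. Its median was 0.17 for high over low and 0.34 for medium over low. The photoreceptor markers are likewise all members of the list, and their sum is not a separate measure. It ran from 1640 to 1720 CPM in medium and from 1360 to 1550 CPM in high DHA. Of the marker sums of the other tissues checked, that of neurons was also lower in high DHA without overlap. Those of muscle, liver, gut, pancreas and lens overlapped between the diets. Whether the retina made up a different share of the larva was not tested. Leaving out 1 library gave 8 to 13 members with an unadjusted p under 0.05 and lower values. The retinal genes PPEF2, CLUL1 and Trpm1, outside this list, were named for small p and lower values in this comparison. Their sign was thus fixed by the choice and adds no support. Of 16 lens genes, by contrast, 1 was higher at an unadjusted p under 0.05 and 0 lower, with a median of 0.05. The lens list lay at -0.7 for high over low and -0.65 for medium over low DHA.

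Of 56 genes of neurons and synapses, 16 (28.6%) had an unadjusted p under 0.05 with lower values in high DHA and 2 with higher values, and the median was -0.32. In 33 of the 56 every high library lay below every medium library, against 11.7% of all genes. Grin1, the obligate subunit of NMDA receptors, was at 7.67, 6.88 and 9.91 CPM in medium and 5.18, 5.58 and 5.39 CPM in high DHA (-0.6 ± 0.16, adjusted p = 0.095, edgeR). The postsynaptic scaffold gene dlg2 was at 18.4, 21.6 and 22 against 15.7, 15.3 and 11.1 CPM (-0.56 ± 0.2, adjusted p = 0.19). Scn8a, a voltage-gated sodium channel, was at 261, 285 and 326 against 239, 232 and 194 CPM (-0.39 ± 0.15, adjusted p = 0.2).

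High replicate 3 had the lowest value of the 6 libraries for dlg2 and Scn8a. The list's centred mean level was 0.15, 0.1 and 0.22 in medium and -0.01, -0.06 and -0.39 in high DHA, and low DHA lay at -0.39, -1.27 and -0.89. Neuronal levels thus ran in the order of low, high and medium DHA, with medians of 0.6 for high over low and 0.97 for medium over low, and high replicate 3 lay level with the highest low library. Without high replicate 3, 2 of the 56 had an unadjusted p under 0.05 with lower values, and the median was -0.2. Without medium replicate 3 the number was 8. Many neuronal genes are long, and the level of very long genes relative to short respiratory chain genes was -2.87 ± 0.18 (log2, SD, n = 3) in medium, -2.98 ± 0.19 in high and -3.7 ± 0.51 in low DHA (high with medium, exact two-sided permutation p = 0.5, where 0.1 is the smallest possible). By library this relative level was -2.8, -3.07 and -2.74 in medium and -2.88, -2.85 and -3.2 in high DHA, so high replicate 3 was the lowest of the 6 here too. Of 50 very long genes, 4 were higher and 4 lower at an unadjusted p under 0.05 (8% each). The part of gene length in the neuronal values was not tested.

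**Figure D4:**
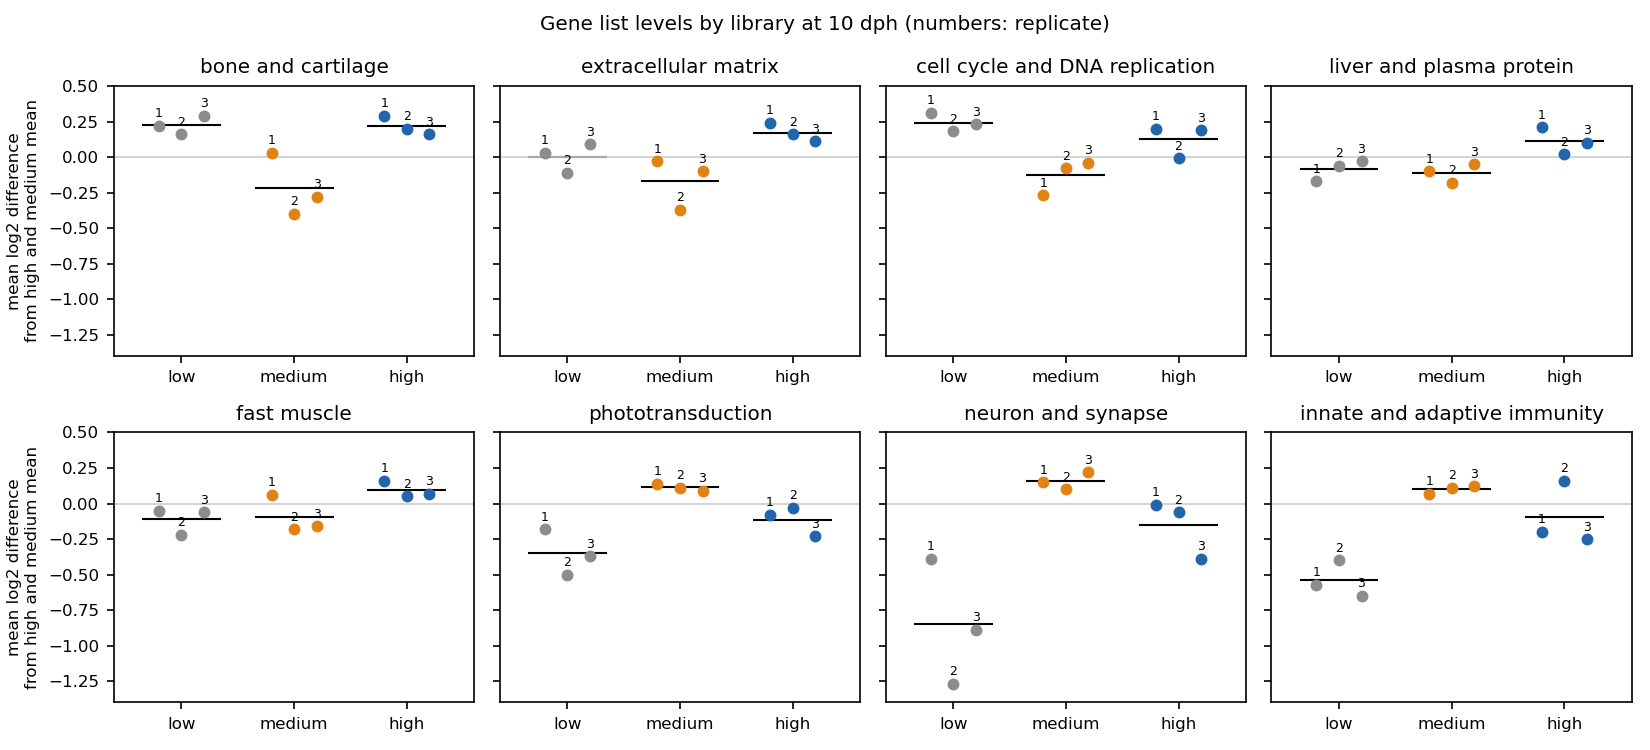
Mean log2 level of 8 gene lists in each library at 10 dph, centred for each gene on the mean of the 6 high and medium libraries; points are libraries, numbered by replicate, and lines are means of 3. Medium DHA is lowest for bone and cartilage and for the cell cycle, and low DHA is lowest for phototransduction, neuron and synapse and immune genes; high replicate 3 is the lowest high library for neuron and synapse, at -0.39.

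Immune genes had few members past an unadjusted p of 0.05. Of 34, 3 were lower in high DHA (8.82%, near the 7.84% of all genes) and 1 higher, with a median of -0.23. Cd74, the invariant chain of MHC class II, was at 32.3, 25.9 and 33 CPM in medium, 20.5, 17.4 and 18.3 CPM in high and 13.8, 14.1 and 13.3 CPM in low DHA (high over medium -0.7 ± 0.16, adjusted p = 0.07, edgeR). CTSS, cathepsin S, which processes that chain, was at 23.3, 20.9 and 21.3 against 17.7, 16.4 and 14.7 CPM, with 11.2 to 14 CPM in low DHA (-0.43 ± 0.1, adjusted p = 0.073). Both genes, chosen for small p, were graded from low through high to medium DHA with no overlap between diets, and neither passed. Over the list, every high library was below every medium library in 6 of the 34 and above in 0. The shares of all genes were 11.7% and 10.9%. NLRC3, of the NOD-like receptor family, was at 85.3, 83.2 and 92.5 against 70.6, 73.3 and 61.9 CPM (-0.34 ± 0.09, adjusted p = 0.095).

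Clock genes were divided, and medium replicate 1 differed from its group. Of 20, 6 (30%) had an unadjusted p under 0.05 with lower values in high DHA and 1 with higher values, with a median of 0.01. CLOCK, the positive arm of the circadian oscillator, was at 4.64, 22.5 and 17.5 CPM in medium and 6.87, 6.52 and 8.02 CPM in high DHA (-1.05 ± 0.31, adjusted p = 0.12, edgeR). Its paralog NPAS2 was at 7.73, 11.8 and 13.5 against 6.12, 7.96 and 5.66 CPM (-0.75 ± 0.19, adjusted p = 0.076). CRY1, a repressor of the oscillator, was at 279, 393 and 415 against 260, 275 and 297 CPM (-0.39 ± 0.12, adjusted p = 0.13). RORB was at 50.3, 100 and 80 against 40.5, 61.5 and 51.6 CPM (-0.58 ± 0.19, adjusted p = 0.15). In all 4, medium replicate 1 was the lowest medium library and lay within or below the range of high DHA. With single libraries left out, the log2 fold change ran from -1.49 (without medium replicate 1) to -0.65 (without medium replicate 2) for CLOCK and from -0.82 to -0.35 (the same libraries) for RORB. It ran from -0.95 to -0.56 for NPAS2 and from -0.54 to -0.27 for CRY1, in both without medium replicate 1 and 3. The hour of sampling is not given in the labels used here.

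In heat shock and chaperone genes medium replicate 1 stood apart too. Of 52, 6 were higher (11.5%) and 4 lower (7.69%) at an unadjusted p under 0.05, near the shares of all genes, with a median of 0. The row hsp70, an inducible chaperone name, was at 6.25, 31.3 and 24.3 CPM in medium and 3.06, 8.77 and 9.54 CPM in high DHA (-1.53 ± 0.43, adjusted p = 0.11, edgeR). Copies of hsp70 are near-identical, so its reads may be split among rows. With single libraries left out, the value of hsp70 ran from -1.97 (without medium replicate 1) to -1.11 (without medium replicate 2).

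Lists of lipid metabolism, to which DHA belongs, did not stand out between high and medium DHA. Among 9 genes of long-chain polyunsaturated fatty acid synthesis 1 was higher and 0 lower at an unadjusted p under 0.05 (median -0.05), and among 22 of sterol synthesis 2 and 0 were (median -0.01). For 12 lipogenesis genes the numbers were 0 and 0 (median -0.09), for 18 of fatty acid oxidation 2 and 0 (median 0), for 29 of lipid transport 1 and 1 (median 0.04), and for 16 of phospholipid synthesis 1 and 1 (median -0.07). Among 11 eicosanoid genes 0 were higher and 1 lower (median -0.04), and among 28 antioxidant genes 0 were higher and 2 lower (median 0). The desaturase fads2, rate-limiting in the synthesis of DHA from its precursors, was at 14, 19 and 14.4 CPM in medium and 14.8, 15.7 and 15.9 CPM in high DHA. Its log2 fold change of -0.02 ± 0.13 had a 95% interval of -0.28 to 0.24. The row mfsd2ab, a paralog of the transporter that carries DHA into brain and eye, had -0.04 ± 0.12 with an interval of -0.29 to 0.2.

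PPARA, a fatty acid receptor that drives lipid oxidation, had a log2 fold change of 0 ± 0.1 with an interval of -0.22 to 0.22. CPT1A, which admits fatty acids to mitochondria, was at 242, 270 and 268 CPM in medium and 236, 250 and 221 CPM in high DHA (-0.14 ± 0.09, interval -0.33 to 0.05). Lipc, hepatic lipase, was at 17.9, 16.4 and 18.9 against 31.6, 21.8 and 23.6 CPM (0.53 ± 0.18, adjusted p = 0.17, edgeR). Fabp6, the ileal bile acid binding protein, was at 32.4, 38.4 and 36.2 against 20.5, 29 and 21.8 CPM, with low DHA at 16.8, 16.8 and 15.3 CPM (high over medium -0.58 ± 0.21, adjusted p = 0.19). None of the lipid genes named here passed the threshold.

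For PDK2 and FKBP5 every high and medium library was above every low DHA library. The intervals of PDK2, FKBP5 and LPIN1 between high and medium DHA spanned 0. PDK2, which blocks carbohydrate entry into the citric acid cycle, was at 312, 284 and 228 CPM in medium, 221, 332 and 178 CPM in high and 72.4, 45.8 and 75 CPM in low DHA. Its log2 fold change over low DHA was 2.09 ± 0.38 in medium (adjusted p = 0.0003, edgeR) and 1.92 ± 0.37 in high DHA (adjusted p = 0.0023), and high over medium was -0.17 ± 0.36, with an interval of -0.91 to 0.57. FKBP5, a cortisol target, was at 167, 184 and 146 CPM in medium, 146, 202 and 121 CPM in high and 80, 47.1 and 63.8 CPM in low DHA (high over medium -0.08 ± 0.24, interval -0.57 to 0.4). LPIN1, a phosphatidate phosphatase, was at 348, 172 and 168 against 226, 267 and 147 CPM (-0.11 ± 0.24, interval -0.6 to 0.39). With single libraries left out, LPIN1 ran from -0.3 (without high replicate 2) to 0.33 (without medium replicate 1), PDK2 from -0.46 to 0.01 and FKBP5 from -0.31 to 0.07 (both without high replicate 2 and 3). TRIM16 varied widely within each diet, from 12.6 to 42 CPM in medium and from 4.75 to 74.1 CPM in high DHA, so that its interval of -1.15 to 1.79 leaves differences of either sign. Without high replicate 2 its value was -1.15, and without medium replicate 3 it was 0.87. Rows whose names differ only in capitals varied otherwise. Trim16 had a log2 fold change of 0.04, and of -0.03 to 0.14 with single libraries left out. Pdk2 had 0.09, and -0.17 to 0.22 with single libraries left out.

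Among digestive genes, Prss1 and CUZD1 had large differences. Prss1, a trypsinogen, was at 232, 264 and 217 CPM in medium, 120, 91.1 and 79.2 CPM in high and 47.1, 76.4 and 38.6 CPM in low DHA (high over medium -1.3 ± 0.41, adjusted p = 0.14, edgeR). CUZD1, of pancreatic zymogen granules, was at 234, 257 and 291 against 121, 140 and 134 CPM (-0.99 ± 0.33, adjusted p = 0.17). High and medium DHA did not overlap for either, and neither passed. Both were chosen for small p. Over the list, every high library was below every medium library in 3 of 13 genes and above in 1. The shares of all genes were 11.7% and 10.9%. Of the 13 pancreatic genes, 3 were lower and 0 higher at an unadjusted p under 0.05, with a median of 0.17, opposite in sign to Prss1 and CUZD1. Trypsinogens form a multigene family whose reads may be split among rows.

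In the skin, PKP1, a plakophilin of desmosomes, was at 36.5, 41.3 and 35.5 CPM in medium and 29.1, 27.9 and 29.1 CPM in high DHA (-0.4 ± 0.09, adjusted p = 0.07, edgeR). Evpl, envoplakin, was at 189, 203 and 236 against 167, 169 and 152 CPM (-0.37 ± 0.1, adjusted p = 0.11). Of 30 epidermal genes, 4 (13.3%) were lower and 1 higher at an unadjusted p under 0.05, with a median of -0.16. Red cell genes numbered 4 higher and 0 lower of 15 (26.7%), with a median of 0.05: slc4a1, the anion exchanger of red cells, was at 76.5, 70.6 and 64.6 against 98.6, 103 and 94.2 CPM (0.48 ± 0.14, adjusted p = 0.12). The hormone and growth list of 29 had 4 higher and 1 lower, and igfbp2a, which binds insulin-like growth factors, was at 32.7, 30.9 and 34.5 against 45.8, 39.1 and 41.6 CPM (0.37 ± 0.1, adjusted p = 0.1).

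Housekeeping lists held few members with an unadjusted p under 0.05. Of 118 rows named for cytosolic ribosomal proteins and 52 of the mitochondrial ribosome, 0 had an unadjusted p under 0.05 in either direction, with medians of -0.01 and -0.03. For 76 ribosome assembly genes 3 were higher and 1 lower, and for 67 respiratory chain genes 3 and 0 (medians 0.01 and 0.01). For 37 proteasome genes 2 were higher and 3 lower (8.11%), with a median of -0.12 and 28 of the 37 below 0. Of the 118 rows, 37 with a mean under 20 CPM over all libraries were set apart as a possible reading of the rotifer prey. These low-count ribosomal rows summed to 45.1 ± 12.2 CPM in medium, 42.9 ± 8.87 in high and 19.5 ± 4.42 in low DHA (SD, n = 3; high with medium on the log2 scale, exact two-sided permutation p = 0.7, where 0.1 is the smallest possible). Whether they hold RNA of prey or of larvae was not tested.

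The precision of the comparison set what could be seen. The median standard error of a log2 fold change was 0.13, against a median size of 0.15. For 2019 genes (27.7%) the 95% interval of the difference lay within 1.25-fold, for 5269 (72.3%) within 1.5-fold and for 6799 (93.2%) within 2-fold.

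The difference between high and medium DHA was next compared between ages. From 5 to 10 dph it changed for 1 gene (0.0137%), ABRA, by 1.39 ± 0.22 (adjusted p = 0.019, edgeR), from -0.63 ± 0.16 at 5 dph to 0.76 ± 0.15 at 10 dph. High DHA at 5 dph had 2 libraries, and 1533 genes (21%) had an unadjusted p under 0.05, 9.53% with the higher value at 10 dph and 11.5% with the lower. Without 10 dph medium replicate 1 the count was 214, without 5 dph medium replicate 3 it was 49 and without 5 dph medium replicate 1 it was 2. It was 0 without 10 dph medium replicate 2 or 3 and without 5 dph high replicate 2, and without 5 dph high replicate 3 the 1 gene called was lower at 10 dph and so was not ABRA. Between 10 and 15 dph the difference changed for 1296 genes (17.8%), 641 (8.79%) with the higher value of high over medium at 10 dph and 655 (8.98%) with the lower. This count was 771 to 1347 when single libraries were left out, lowest without 15 dph high replicate 2, with 822 without 15 dph medium replicate 2 and 853 without 10 dph high replicate 3. Counts below use this test, which contains the 10 dph libraries described above, and so adds only what the 15 dph libraries bring.

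Of 84 cell cycle genes, 48 (57.1%) had a difference that changed between the ages, all with the higher value at 10 dph, and the list's median of high over medium was 0.12 at 5, 0.26 at 10 and -0.4 at 15 dph. The row pbk, a mitotic kinase, had 0.51 ± 0.13 at 10 dph and -0.76 ± 0.13 at 15 dph, a change of 1.27 ± 0.18 (adjusted p = 0.00041, edgeR). Chaf1b went from 0.73 ± 0.15 to -0.38 ± 0.14, a change of 1.11 ± 0.21 (adjusted p = 0.0021). Of 37 bone and cartilage genes, 21 (56.8%) changed with the higher value at 10 dph and 0 with the lower, with medians of 0.04, 0.44 and -0.38 at 5, 10 and 15 dph. Cthrc1 changed by 1.37 ± 0.22 (adjusted p = 0.00089) and Col11a1 by 1.33 ± 0.27 (adjusted p = 0.0035). Of 46 matrix genes 14 were higher at 10 dph and 1 lower, and of 36 fast muscle genes 11 and 0. With single libraries left out, the numbers higher at 10 dph ran from 35 to 57 for the cell cycle and from 12 (without 15 dph high replicate 2) to 21 for bone and cartilage. They ran from 5 to 18 for matrix and from 7 to 13 for fast muscle, lowest in both without 15 dph medium replicate 2.

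HRC had a log2 fold change of high over medium of 0.54 ± 0.13 at 10 dph and -0.8 ± 0.12 at 15 dph (change 1.34 ± 0.18, adjusted p = 0.00023, edgeR). PGAM2, the muscle form of a glycolytic mutase, had 0.47 ± 0.14 and -0.93 ± 0.14 (change 1.4 ± 0.2, adjusted p = 0.00041). Of 67 respiratory chain genes 18 (26.9%) changed with the higher value at 10 dph and 0 with the lower, although the list's median was 0.01 at 10 dph and -0.28 at 15 dph. Of 22 sterol synthesis genes 6 (27.3%) did and 0 with the lower, with medians of 0.48, -0.01 and -0.41 at 5, 10 and 15 dph. Without 10 dph high replicate 1 these numbers were 10 for the respiratory chain and 1 for sterol synthesis.

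In the other direction, 11 of 56 neuronal genes (19.6%) and 6 of 27 phototransduction genes (22.2%) changed with the lower value at 10 dph, and 1 and 0 with the higher. The neuronal median was 0.39, -0.32 and 0.17 at 5, 10 and 15 dph, and the phototransduction median -0.12, -0.27 and 0.08. Without 10 dph high replicate 3 the numbers lower at 10 dph were 5 neuronal and 1 phototransduction gene. RP1, of the photoreceptor cilium, was named after its values were seen: it changed by -0.89 ± 0.18 (adjusted p = 0.0033, edgeR). Of 30 epidermal genes 9 (30%) changed with the lower value at 10 dph and 0 with the higher, Evpl by -0.89 ± 0.15 (adjusted p = 0.00094). CAPN2, a calcium-activated protease, had a log2 fold change of high over medium of -0.43 ± 0.1 at 10 dph and 0.87 ± 0.1 at 15 dph (change -1.3 ± 0.15, adjusted p = 4.5e-05), and PRODH had -0.41 ± 0.09 and 0.68 ± 0.09 (change -1.09 ± 0.13, adjusted p = 7.7e-05).

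For the 10 genes changed at 10 dph, the value of high over medium at 15 dph had the other sign in each, and in most it did not pass the test. At 15 dph pssA had 0.28 ± 0.18 (adjusted p = 0.28, edgeR), MFAP4 0.43 ± 0.3 (adjusted p = 0.32) and CMKLR1 0.01 ± 0.13 (adjusted p = 0.97). CLUL1 was higher in high DHA at 15 dph, by 0.28 ± 0.08 (adjusted p = 0.028), the opposite of 10 dph. For Cfi the value was -0.09 ± 0.17 (adjusted p = 0.76) and for act3 -0.46 ± 0.2 (adjusted p = 0.11). At 5 dph pssA had -0.27 ± 0.2 (adjusted p = 0.46), Cfi 0.11 ± 0.19 (adjusted p = 0.77) and act3 -0.31 ± 0.23 (adjusted p = 0.45).

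**Figure D5:**
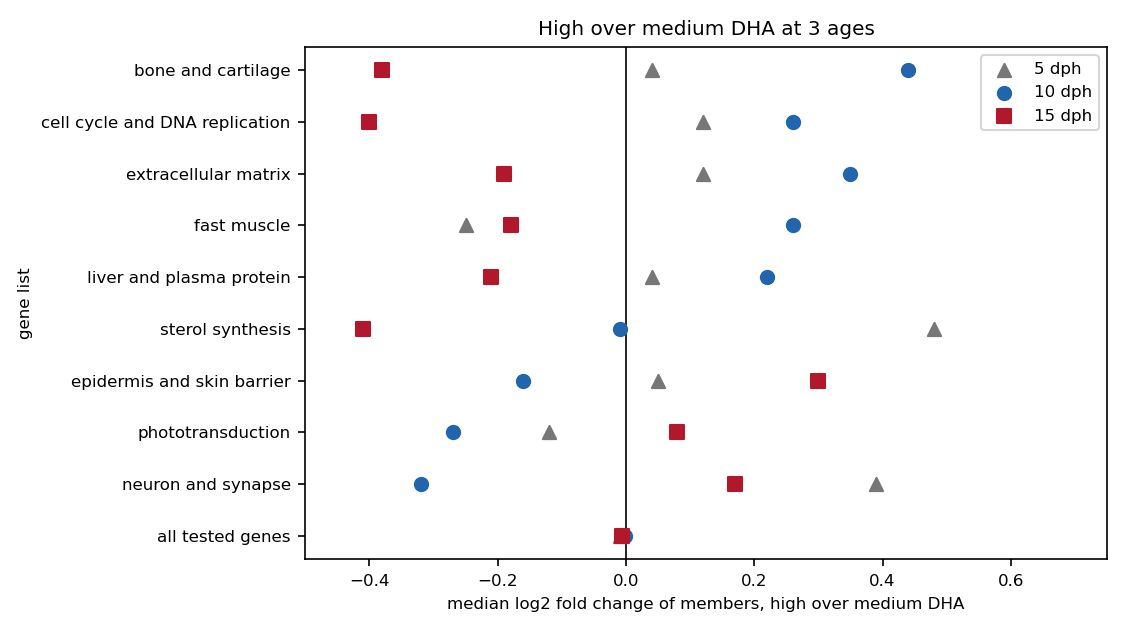
Median log2 fold change of high over medium DHA among the members of 9 lists and among all tested genes at 5, 10 and 15 dph. Bone and cartilage lies at 0.44 at 10 dph and -0.38 at 15 dph and cell cycle at 0.26 and -0.4, while neuron and synapse lies at -0.32 and 0.17.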

How the data were processed

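Total RNA of whole larvae was extracted with Tri-reagent and made into libraries with a TruSeq RNA kit, per the labels' protocols. The authors deposited 1 table of raw counts per gene name, 7295 rows, and the submitters' processing notes name DESeq2 with no version. Aligner, counter, genome build and annotation names were not given in the sources used here. Names that differ only in capitals (454 names, 916 rows) were kept as separate rows and are called genes here, so reads of a gene can be split. No sequences or coordinates were used.

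The counts were tested with edgeR 4.0.16 under R 4.3.3, using filterByExpr (3 rows removed, 7292 tested), TMM scaling, 9 groups of age and diet over 26 libraries (12805866 to 19169404 counts), and a two-sided quasi-likelihood F-test with robust estimation, adjusted by Benjamini-Hochberg at 0.05. The common biological coefficient of variation was 11.9%. Standard errors come from the F statistic, and intervals are 95%. Single values per library were compared by exact permutation tests. DESeq2 1.42.0 was an alternative, and the test was checked on simulated counts. Named genes were the changed genes of at least 5 CPM (up to 15 per direction, filled to 8 with the smallest p) and up to 4 members of each list with the smallest p. Also named were 5 genes per direction for changes between ages, and a fixed set. That set held lipid, endocrine and eye genes and also PDK2, TRIM16, TRIM25 and ZPLD1. The groups, lists and genes were chosen with earlier results of these data known. Low DHA is a reference shared by both diets, so the comparisons with it are not independent of each other. Internal control samples were not analysed here. A few genes that the naming rule took are not reported here.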

Additional observations from a re-analysis of the deposited data

Results flagged for a closer look

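Results are listed here where the difference between high and medium DHA differed between ages by the interaction test of edgeR with Benjamini-Hochberg adjustment. It changed for 1296 genes between 10 and 15 dph and for 1 gene, ABRA (1.39 on the log2 scale), between 5 and 10 dph. Because the 10 dph libraries that chose the named genes also enter this test, a large change between ages in those genes is partly fixed by the choice.

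Among genes changed at 10 dph or next to the threshold, the log2 fold change of high over medium DHA at 10 dph minus that at 15 dph was 1.47 for act3, 0.97 for Cfi, 1.23 for ABRA and 1.11 for Chaf1b. It was 1.51 for hspb11, 0.63 for EFEMP2 and 1.02 for rsph10b. The same quantity was -2.09 for MFAP4, -1.76 for pssA, -0.78 for CMKLR1, -0.85 for PPEF2, -0.58 for LACTBL1, -0.69 for CLUL1 and -1.09 for PRODH.

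Of the genes with the smallest p for this change, the value was 1.34 for HRC, 1.23 for ADPRH, 1.27 for pbk, 1.28 for BLVRB and 1.4 for PGAM2, and it was -1.3 for CAPN2, -1.17 for VWA5A and -1.33 for Vwa5a. BLVRB, biliverdin reductase B, stood at 0.3 ± 0.13 at 10 dph and -0.99 ± 0.13 at 15 dph, so most of its change lay at 15 dph. VWA5A and Vwa5a are rows whose names differ only in capitals, and both moved the same way. Groups of 3 were too small for a search for outlying single values.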

How the results depend on the processing

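Counts of changed genes moved with the processing, and so did some list and gene values. For high against medium DHA at 10 dph (10 changed; 4 higher, 6 lower), DESeq2 gave 133 (83 and 50), the length score as a covariate 96 (41 and 55), leaving out the 2 libraries with the lowest TMM factors 21 (10 and 11), rows of at least 10 CPM alone 6 (3 lower), and the groups of the contrast alone 5 (1 higher). Without 1 replicate the range was 1 to 345 (0 to 220 higher, 1 to 125 lower). DESeq2 size factors in edgeR gave 9 and no filter 10. For the change from 5 to 10 dph (1, higher), DESeq2 gave 105 (44 and 61), and the contrast's groups alone and the fit without the 2 libraries gave 0. Without 1 replicate its range was 0 to 214 (0 to 117 higher, 0 to 97 lower). For 10 to 15 dph (1296), the range was 771 to 1347 (385 to 694 higher, 386 to 711 lower). With single replicates aside, 155 list counts moved and 1125 did not, 26 list medians moved and 614 did not, 3 gene values moved, 99 gene values gained a call and 19 lost one. No named gene that was called changed sign under these alternatives, and the median shift of all genes was at most 0.013 in log2. The cause of these differences was not tested.

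The labels do not say whether replicate numbers pair the samples, and the main test used no block. The correlations of same-numbered high and medium libraries' deviations were 0.17, -0.19 and 0.12, and those of differently numbered libraries ran from -0.27 to 0.23. With 3 libraries per diet these values cannot decide whether the numbers pair them. With the replicate block within age, 10 genes changed, of which 5 were among the 10 changed without it. It gave 1 and 1187 changed genes for the changes between ages. The median row had 510 counts in the 6 libraries, and rows of few counts are the ones that depth limits.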
